A study of Rattus norvegicus with 12 samples.

Results

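Itgb1 codes for the beta 1 chain of the integrins, and the alpha chains considered with it were those of Itga1, Itga2, Itga3, Itga4, Itga5, Itga6, Itga8, Itga9 and Itgav. Probes were taken where the RefSeq accession that the array gives them maps to one of these 10 symbols. This gave 8 probes of 6 genes, namely 2 probes of Itgb1, 2 of Itga8 and 1 each of Itga1, Itga3, Itga4 and Itga5, out of 30367 probes in all and 14737 genes that could be named by accession. A further 2 probes, of Itga2 and Itga6, carry a transcript identifier of another database and owe their symbols to the deposited lists of differentially expressed (DE) probes. Since such a probe has a name only because it was in a list, its values are given as a description, with no test. No probe could be named for Itga9 or Itgav, which were not analysed here. The beta 1 partners Itga7, Itga10 and Itga11 are not among the 10 genes and were counted apart.

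An integrin is a receptor made of 1 alpha and 1 beta chain, which spans the cell membrane and ties the extracellular matrix, or a receptor on another cell, to the actin cytoskeleton. The alpha chain sets most of the ligand choice: Itga1 and Itga2 bind collagen, Itga3 and Itga6 bind laminin, Itga4 binds fibronectin and Vcam1, Itga5 binds the RGD site of fibronectin, and Itga8 binds nephronectin. In the lung these receptors hold epithelium and endothelium to their basement membranes, and they serve fibroblasts, smooth muscle and leukocytes that move through the tissue.

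The samples were lung tissue of male rats aged 8 to 12 weeks, which the methods give as Sprague–Dawley rats, with 3 samples in each of 4 groups. Control rats had neither exposure, and by the methods were given air or saline on the same schedule. The CS + LPS group was exposed to cigarette smoke and had lipopolysaccharide instilled into the trachea, as a model of chronic obstructive pulmonary disease. The CS + LPS + NaHS and CS + LPS + PPG groups had both exposures too, and were treated beforehand with sodium hydrosulfide, a donor of hydrogen sulfide, or with propargylglycine, an inhibitor of the hydrogen sulfide-producing enzyme CTH. The model is an exposure of whole animals with no genetic change, and the RNA came from bulk tissue of 1 lobe, so that fewer cells of a type and less RNA per cell cannot be told apart. The labels number the samples without saying that each is a separate rat. The p-values of the linear model used below set a group difference against the spread between these samples. That spread is pooled over the 4 groups and draws on other probes.

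The values below are the scanner's processed signal on the log2 scale, shifted so that the 75th percentile is equal on all arrays. A difference of 1 is a fold of 2. A probe was called DE by the study's rule, a fold of at least 2 with an unadjusted p under 0.05 in the linear model of limma, and calls with a Benjamini-Hochberg adjusted p under 0.05 over all 21239 detected probes were counted apart. The 12 arrays lay on 2 slides. Slide 2 held the 3 CS + LPS arrays and Control replicate 3, and slide 1 held the rest. Between CS + LPS and either treated group, treatment and slide therefore cannot be told apart. Control replicate 3 correlated with the other arrays at r of 0.936 to 0.957, and its 75th percentile signal was 857.1 against 1430 to 2227 on the others. The share of probes well above background on an array was 66.0% to 75.5%. All 10 integrin probes were well above background on 12 of 12 arrays and none was saturated.

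Signals of alveolar, airway, endothelial and smooth muscle marker genes were present in all 4 groups, as labelled for lung. The summed airway signal was 454800 in Control replicate 3, against 155400 to 205700 on the other arrays. That array also had the lowest summed alveolar type 1 signal, 154300, and the highest summed heart muscle signal, 91740. Against control the median of 3 detected airway markers was -0.65 in CS + LPS, -0.78 with NaHS and -0.72 with PPG. The summed signal of 3 detected macrophage markers out of 5 was 13600 to 20260 in the CS + LPS samples, 13830 to 17230 in those given NaHS, 12570 to 16390 in those given PPG, and 4077 to 8352 in the control samples. The control samples did not overlap the others. Cd68, a lysosomal protein of macrophages, was 1.39 higher in CS + LPS than in control on the log2 scale (SE 0.26, adjusted p = 0.0304 by limma). The summed signal of the heart muscle markers was 6354 to 91740 in the control samples, 12830 to 53400 in CS + LPS, 10280 to 56180 in the NaHS samples and 41660 to 72070 in the PPG samples. That of 3 detected fat markers out of 5 was 9483 to 13190 in the PPG samples, above the 4721 to 7155 of CS + LPS and the 5380 to 7672 of NaHS, and 3584 to 13050 in the control samples. The part of these cell types in the integrin values was not tested.

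**Figure D1:**
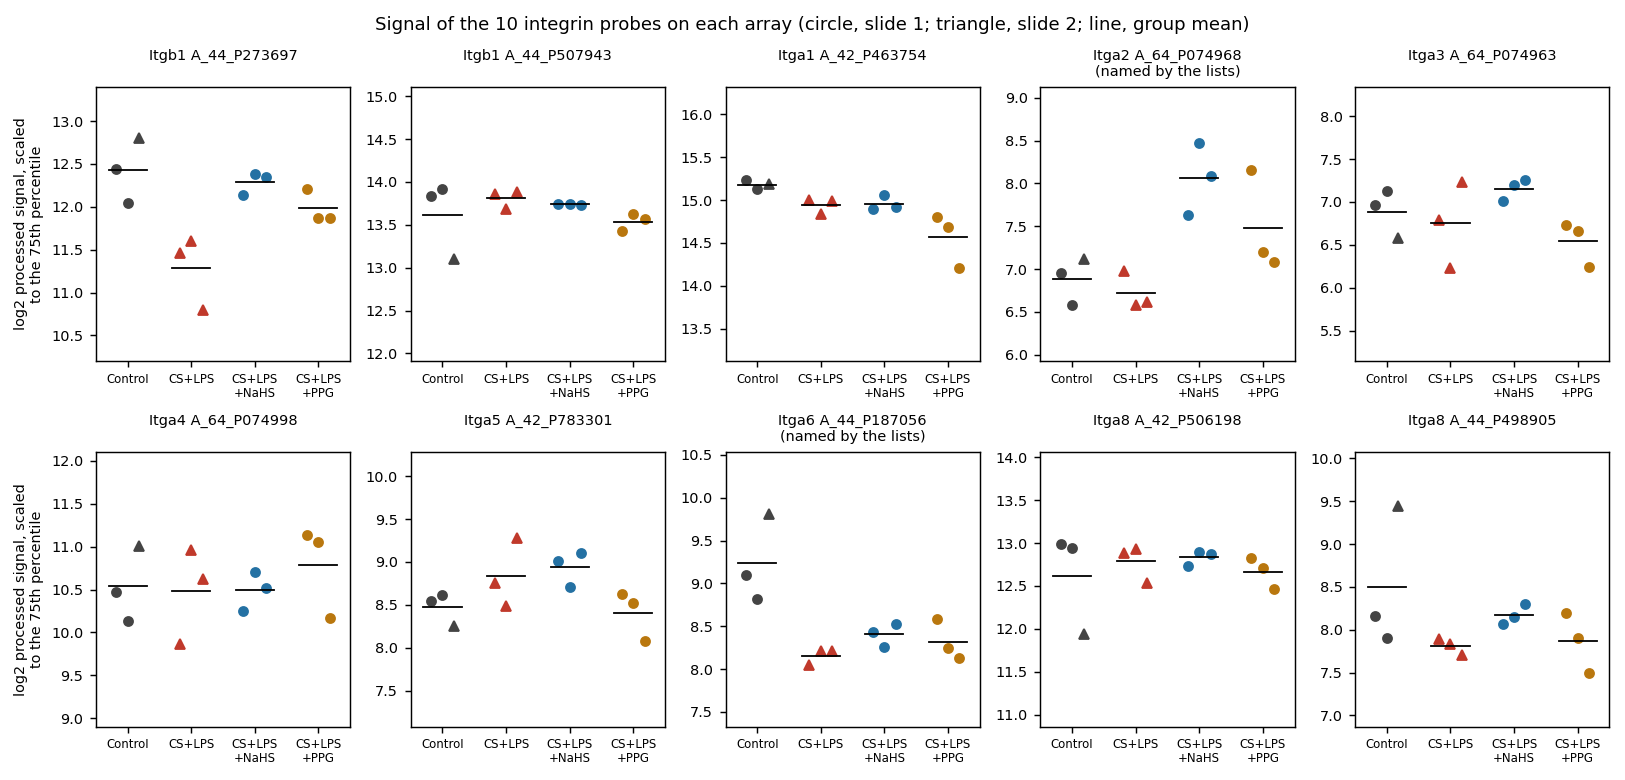
Scaled log2 processed signal (y axis, of equal span in each panel) of the 10 integrin probes in the 4 groups (x axis). Each point is an array, circles for slide 1 and triangles for slide 2, and the line is the group mean. The first Itgb1 probe was lowest in the 3 CS + LPS samples, between 10.80 and 11.60, and the second showed no such drop.

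The 2 accession-named members with an adjusted p under 0.05 in any comparison were Itgb1 and Itga1. Their promoters are shown to set the genes side by side, as the 250 bases before the transcription start of RefSeq in assembly GRCr8, 5′ to 3′ on the strand of the gene. Itgb1 lies on the plus strand at chr19:73602027-73602276 and Itga1 on the minus strand at chr2:48545284-48545533. Capitals mark 2 motifs, the GC box GGGCGG and the core of the antioxidant response element TGACNNNGC, each searched on both strands.
Itgb1: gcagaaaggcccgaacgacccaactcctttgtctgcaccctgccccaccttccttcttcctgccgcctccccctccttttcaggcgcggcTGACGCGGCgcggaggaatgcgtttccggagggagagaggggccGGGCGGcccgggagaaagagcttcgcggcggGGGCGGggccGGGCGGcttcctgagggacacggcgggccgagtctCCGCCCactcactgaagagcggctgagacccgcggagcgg
Itga1: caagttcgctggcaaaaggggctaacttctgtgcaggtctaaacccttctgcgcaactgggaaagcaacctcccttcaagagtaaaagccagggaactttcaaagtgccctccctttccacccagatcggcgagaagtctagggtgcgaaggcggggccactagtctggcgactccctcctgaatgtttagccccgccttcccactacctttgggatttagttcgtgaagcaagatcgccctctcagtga

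The Itgb1 window held 4 GC boxes and 1 antioxidant response core, and the Itga1 window held neither. Of 33469 promoters of the same length, 30.5% held a GC box and 10.1% the antioxidant response core. CG pairs numbered 28 in the Itgb1 window and 10 in that of Itga1, against a median of 5. The TATA box TATAAA was in neither window and in 12.9% of all, and the AP-1 site TGAGTCA was in neither and in 4.05% of all. These matches describe letters only. Of the other members with an entry, Itga2 held 3 GC boxes, Itga3, Itga9 and Itgav 2 each and Itga5 1, while Itga4 and Itga8 held none, and Itga6 had no entry in the table.

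Itgb1, the common beta chain, was measured by a pair of probes that did not show the same pattern. The probe A_44_P273697, printed in 10 spots, lies at chr19:58611137-58611196 in the deposited lists, which name no genome build. Its log2 signal was 12.45, 12.04 and 12.80 in control, 11.46, 11.60 and 10.80 in CS + LPS, 12.13, 12.38 and 12.35 with NaHS, and 12.21, 11.87 and 11.86 with PPG. The 3 CS + LPS samples lay below all 9 others. Between CS + LPS and control, 25.2% of all probes had no overlap. The group means were 12.43 ± 0.38, 11.29 ± 0.43, 12.29 ± 0.13 and 11.98 ± 0.20 (SD, n = 3).

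In CS + LPS compared with control this Itgb1 probe fell by 1.14 on the log2 scale (95% confidence interval -1.67 to -0.62), a fold of 2.21, with an unadjusted p of 0.000584 and an adjusted p of 0.0422 in limma. It was the 1 member called among 8 by fold and p, where 4.59% of all probes were called, and the 1 called by adjusted p, where 2.04% were. A count of 1 of 8 is a single probe. Without Control replicate 3 the difference was -0.96 with an adjusted p of 0.0787, and without CS + LPS replicate 3 it was -0.90 with an adjusted p of 0.138, so that the fold was under 2 in both. The adjusted p stayed under 0.05 in 1 of the 12 fits that left out an array, the one without Control replicate 2, and within slide 2, against Control replicate 3 alone, the difference was -1.51 with an adjusted p of 0.0038, in a fit where 41.5% of all probes had an adjusted p under 0.05.

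All CS + LPS arrays lay on slide 2 and all NaHS and PPG arrays on slide 1, so that treatment and slide cannot be told apart here. The same Itgb1 probe was higher by 1.00 (0.47 to 1.53) in CS + LPS + NaHS than in CS + LPS. The samples did not overlap, as for 20.5% of all probes. The fold of this probe, 1.99995, fell short of the limit of 2. Its adjusted p was 0.113 in limma (unadjusted p = 0.00155), and it was not called by either rule. In the log2 values that the authors deposited the difference was 1.03, past the fold limit. The PPG samples did not overlap with CS + LPS either, as for 19.1% of all probes. With PPG the probe was higher than in CS + LPS by 0.70 (0.17 to 1.22, adjusted p = 0.316 in limma, unadjusted p = 0.0142). With NaHS it differed from control by -0.14 (-0.67 to 0.38) and with PPG by -0.45 (-0.97 to 0.08), and neither passed. The direct difference of NaHS minus PPG was 0.30 (-0.22 to 0.83, adjusted p = 0.731 in limma), so that the treatments were not shown to differ. With the slide as a block, which rests on Control replicate 3 as the only control array beside CS + LPS, the difference from CS + LPS was 1.56 with NaHS (adjusted p = 0.0195) and 1.25 with PPG (adjusted p = 0.042), in fits where 23.0% and 22.5% of all probes had an adjusted p under 0.05. Without Control replicate 3 the difference with NaHS had an adjusted p of 0.0469. Without CS + LPS replicate 3 the difference with PPG was 0.45.

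Some markers in the pancreas and endothelium lists differed between these groups, while others of the same lists differed less or in the other direction. The summed signal of 2 detected pancreas markers out of 5 was 407.5 to 464.5 in CS + LPS, below all 9 other samples, which had 618.3 to 1362 in control, 1499 to 2605 in the NaHS group and 543.8 to 1697 in the PPG group. Of these, Ctrb1, a digestive enzyme precursor of the pancreas, rose by 2.39 with NaHS against CS + LPS (SE 0.43, adjusted p = 0.0381 in limma). Ctrb1 was 1.02 lower in CS + LPS than in control (adjusted p = 0.173 in limma), where the other marker, Cpa1, was 0.42 higher. With NaHS against CS + LPS Cpa1 differed by 0.24. Of 4 detected endothelial markers, Tek, a receptor of endothelial cells, fell by 0.78 in CS + LPS against control (adjusted p = 0.0395 in limma). The median of the 4 was -0.46 there and the highest value 0.16. Cdh5, the cadherin of endothelial junctions, was 1.45 higher with NaHS than in CS + LPS and called by fold and p (adjusted p = 0.0604 in limma). In that comparison the median of the 4 was 0.25 and the lowest value -0.04. With PPG against CS + LPS the median of the 4 was 0.15 and the lowest value -0.27. The summed endothelial signal was 85850 to 101200 in CS + LPS and 96110 to 105900 in control, which overlap. The part of these cells in the Itgb1 values was not tested.

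The other Itgb1 probe, A_44_P507943 with 2 spots, had log2 signals of 13.84, 13.92 and 13.10 in control, 13.86, 13.69 and 13.89 in CS + LPS, 13.74, 13.75 and 13.73 with NaHS, and 13.42, 13.62 and 13.57 with PPG. Control replicate 3, the highest of 12 samples for the first probe, was the lowest of 12 for this one. CS + LPS differed from control by 0.19 (-0.24 to 0.61, adjusted p = 0.534 in limma), an interval that does not hold the fall of the first probe. Without Control replicate 3 the difference was -0.07, and within slide 2 it was 0.71 with an adjusted p of 0.0039, opposite in sign to the first probe. NaHS differed from CS + LPS by -0.07 (-0.49 to 0.35) and PPG by -0.27 (-0.70 to 0.15), and no comparison of this probe was called. The files hold no probe sequences, and which transcripts each probe reads was not analysed here.

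The disagreement of the pair was measured within arrays, as the first probe minus the second on the log2 scale, set to a mean of 0 in control. It was -0.20, -0.68 and 0.89 in control, -1.20, -0.90 and -1.89 in CS + LPS, -0.42, -0.18 and -0.19 with NaHS, and -0.02, -0.57 and -0.51 with PPG. The CS + LPS samples lay below all others, and against NaHS and PPG their slide cannot be told apart from the treatment. The difference was -1.33 for CS + LPS minus control, 1.07 for NaHS minus CS + LPS and 0.97 for PPG minus CS + LPS, each with an exact permutation p of 0.1 (two-sided, n = 3), the smallest that 3 against 3 allows. Over the 12 comparisons made of the Itgb1 and Itga8 pairs the adjusted p of these exact tests was 0.3. Without Control replicate 3 the first of these differences was -0.89.

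**Figure D2:**
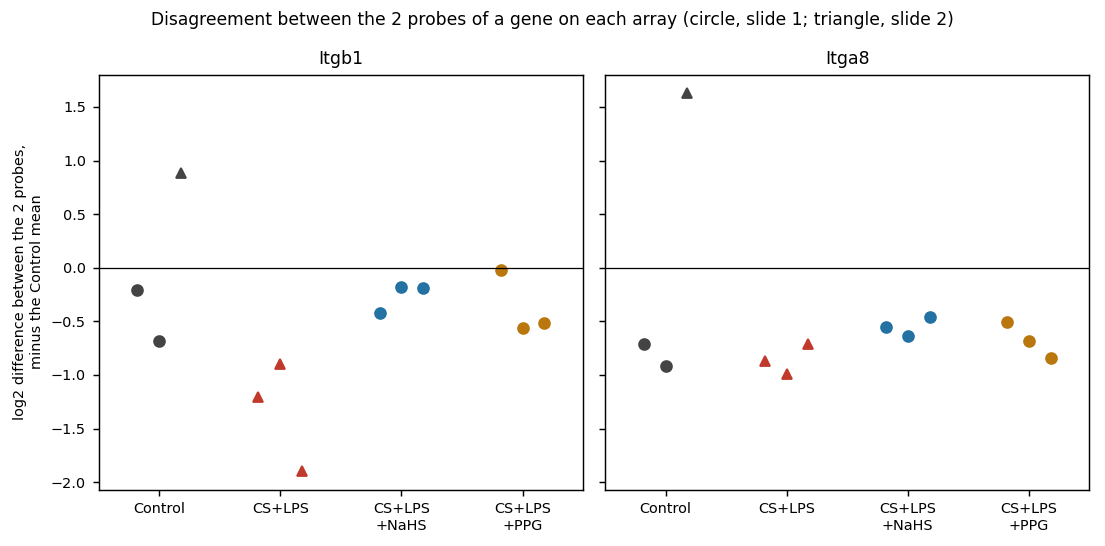
Within-array difference between the 2 probes of Itgb1 (left) and of Itga8 (right) on the log2 scale, less the control mean (y axis), for the arrays of each group (x axis), circles for slide 1 and triangles for slide 2. For Itgb1 the 3 CS + LPS arrays lay lowest, at -0.90 to -1.89, and for Itga8 Control replicate 3 alone stood apart, at 1.63.

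Among the collagen-binding chains, Itga1 was lower with PPG. Its log2 signal was 15.23, 15.12 and 15.18 in control, 15.00, 14.84 and 14.98 in CS + LPS, 14.90, 15.06 and 14.92 with NaHS, and 14.80, 14.68 and 14.21 with PPG. Every control sample lay above every sample of the 3 exposed groups. Of all probes, 25.2% had no overlap between CS + LPS and control, 24.8% between NaHS and control and 33.1% between PPG and control. With PPG it fell by 0.62 compared with control (-0.95 to -0.28), a fold of 1.53, with an adjusted p of 0.0485 in limma and an unadjusted p of 0.00211. It was the 1 member of 8 with an adjusted p under 0.05 in that comparison, where 4.61% of all probes had one, and 0 of 8 were called by fold and p, where 4.38% were. The adjusted p rose above 0.05, to between 0.0527 and 0.138, when any 1 of the 12 arrays was left out, and without PPG replicate 3 the difference was -0.44. It was 0.0705 within slide 1.

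Itga1 differed from control by -0.24 in CS + LPS (-0.58 to 0.10, adjusted p = 0.336 in limma) and by -0.22 with NaHS (-0.56 to 0.12, adjusted p = 0.465 in limma). PPG lay 0.38 below CS + LPS (-0.72 to -0.04) with an unadjusted p of 0.0315 in limma and an adjusted p of 0.418. NaHS lay 0.40 above PPG (0.06 to 0.73), with an unadjusted p of 0.0259 in limma and an adjusted p of 0.566. All 3 NaHS samples lay above all 3 of PPG, and 25.2% of all probes had no overlap there. The NaHS and PPG arrays all lay on slide 1. Without PPG replicate 3 these differences were -0.20 and 0.22. The fat markers given above separated the PPG samples from both of these groups too, and their part was not tested.

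Itga2, the collagen receptor chain of platelets and epithelium, lies in the deposited lists at chr2:46968694-46968753 (build not named). Its log2 signal was 6.95, 6.58 and 7.12 in control, 6.98, 6.58 and 6.61 in CS + LPS, 7.64, 8.47 and 8.08 with NaHS, and 8.16, 7.19 and 7.08 with PPG. The NaHS samples lay above all control and all CS + LPS samples, and 1 PPG sample lay among them. Of all probes, 24.8% had no overlap between NaHS and control and 20.5% between NaHS and CS + LPS. The mean with NaHS, 8.06 ± 0.42 (SD, n = 3), was 1.34 above CS + LPS and 1.18 above control, which are the contrasts that gave the probe its name. The mean of CS + LPS was 0.16 below control here and 0.10 above it in the log2 values that the authors deposited.

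Of the laminin-binding chains, Itga6, the partner of beta 1 and of beta 4 in epithelial cells, was highest in control. It lies in the lists at chr3:54263800-54263859 (build not named). Its log2 signal was 9.10, 8.82 and 9.81 in control, 8.05, 8.21 and 8.21 in CS + LPS, 8.43, 8.26 and 8.53 with NaHS, and 8.58, 8.24 and 8.12 with PPG. The control samples did not overlap with any other sample. Against control, 25.2% of all probes had no overlap in CS + LPS, 24.8% with NaHS and 33.1% with PPG. The mean was 1.08 lower in CS + LPS than in control, the contrast that named the probe, and it was 0.83 lower with NaHS and 0.92 lower with PPG against the same control samples. Without Control replicate 3, the highest sample, these differences were -0.80, -0.55 and -0.64. NaHS lay 0.25 above CS + LPS and PPG 0.16 above it, and the PPG samples overlapped with those of CS + LPS.

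Itga3, the other laminin-binding chain, had log2 signals of 6.96, 7.12 and 6.58 in control, 6.79, 6.23 and 7.23 in CS + LPS, 7.01, 7.19 and 7.25 with NaHS, and 6.73, 6.66 and 6.24 with PPG. No comparison was called. The widest was NaHS minus PPG, 0.61 (0.07 to 1.15), with an unadjusted p of 0.0309 in limma and an adjusted p of 0.566. The samples of these 2 groups did not overlap, as for 25.2% of all probes. The probe was faint, with a processed signal of 53 to 181. Under other processing settings NaHS minus PPG ran from 0.33 to 0.70, and NaHS minus CS + LPS from -0.06 to 0.64.

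Itga5, the fibronectin receptor chain, had, like Itga3, its highest mean with NaHS and its lowest with PPG. Its log2 signal was 8.54, 8.62 and 8.25 in control, 8.75, 8.48 and 9.28 in CS + LPS, 9.01, 8.71 and 9.10 with NaHS, and 8.63, 8.53 and 8.08 with PPG. NaHS minus PPG was 0.53 (0.03 to 1.02, unadjusted p = 0.0382 and adjusted p = 0.566 in limma), again with no overlap, as for 25.2% of all probes. NaHS minus control was 0.47 (-0.03 to 0.96, adjusted p = 0.311 in limma). Itga4, the chain of lymphocytes and monocytes that binds Vcam1, spread as widely within groups as between them, with means of 10.54 ± 0.44 in control, 10.48 ± 0.56 in CS + LPS, 10.49 ± 0.23 with NaHS and 10.79 ± 0.54 with PPG (SD, n = 3). Its 6 differences lay between -0.30 and 0.31.

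Itga8, a chain of smooth muscle and interstitial fibroblasts, was measured by another pair of probes. The probe A_42_P506198 (10 spots) gave 12.99, 12.94 and 11.94 in control, 12.89, 12.94 and 12.53 in CS + LPS, 12.73, 12.90 and 12.87 with NaHS, and 12.82, 12.71 and 12.46 with PPG. The probe A_44_P498905 (2 spots) gave 8.16, 7.91 and 9.44 in control, 7.90, 7.83 and 7.71 in CS + LPS, 8.06, 8.14 and 8.30 with NaHS, and 8.20, 7.91 and 7.50 with PPG. Control replicate 3 was the lowest of 12 samples for the first of these and the highest of 12 for the second. The second was 0.69 lower in CS + LPS than in control (-1.43 to 0.04, adjusted p = 0.218 in limma), and this was -0.22 without Control replicate 3. Within slide 2, against that array alone, it was -1.63 with an adjusted p of 0.00102, while the first probe was 0.85 higher with an adjusted p of 0.00747. The within-array difference of the Itga8 pair was -0.86 for CS + LPS minus control (exact permutation p = 0.4, two-sided, n = 3) and -0.04 without Control replicate 3.

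**Figure D3:**
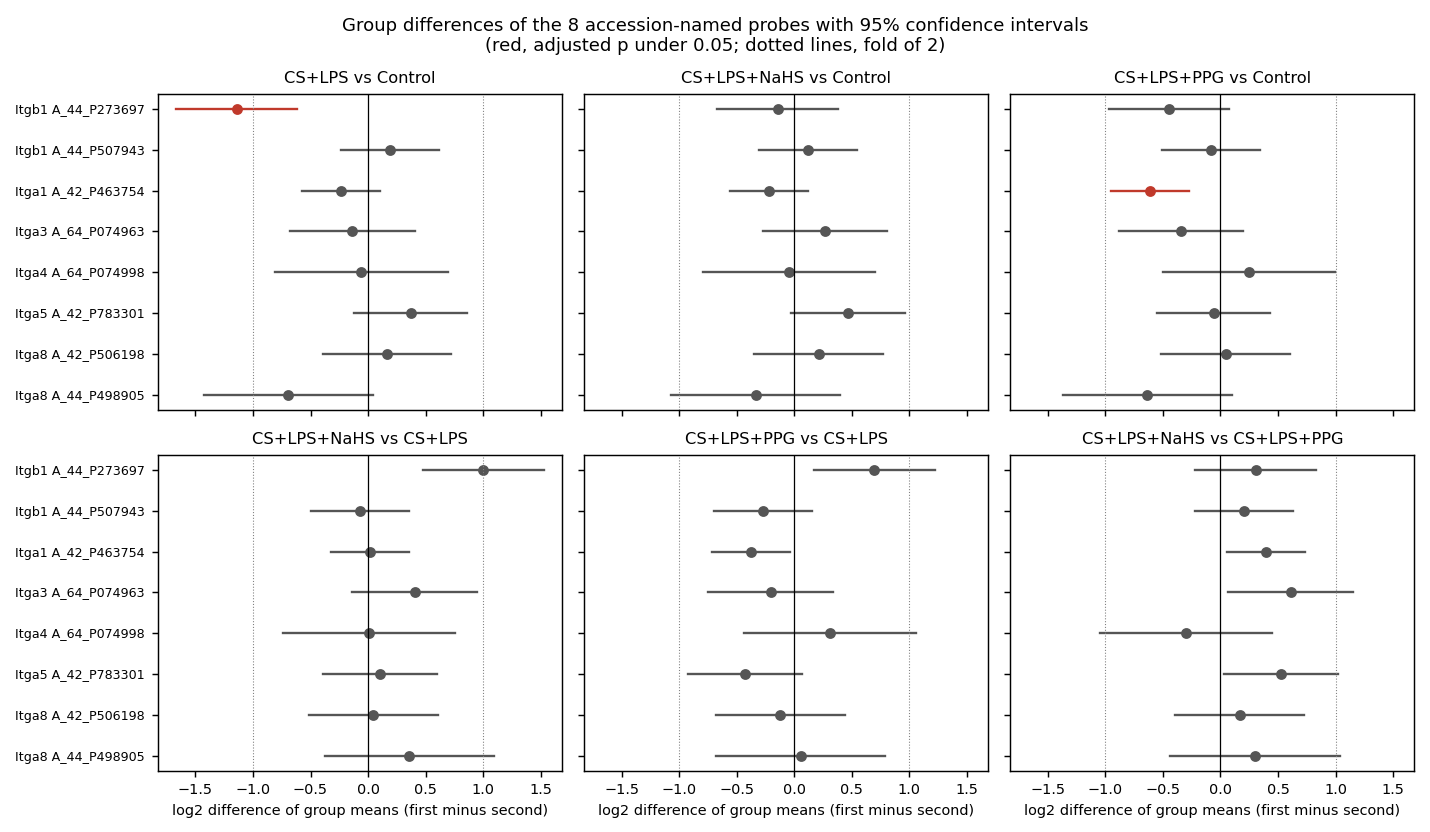
Difference of group means on the log2 scale (x axis, first group minus second) for the 8 accession-named probes (y axis) in 6 comparisons, with 95% confidence intervals from limma. Red marks an adjusted p under 0.05, which Itgb1 A_44_P273697 had in CS + LPS against control and Itga1 in PPG against control, and dotted lines mark a fold of 2.

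Over the 8 accession-named probes at most 1 was called in any comparison by either rule. In NaHS against control, 0 of 8 were called by fold and p, where 2.67% of all probes were, and 0 by adjusted p, where 0.0989% were, with 0 of 8 at an unadjusted p under 0.05 in limma (17.1% of all). In NaHS against CS + LPS, 0 of 8 were called by fold and p (1.71% of all) and 0 by adjusted p (0.598%), with 1 at an unadjusted p under 0.05 in limma (9.66% of all). In PPG against CS + LPS the counts were 0 (2.06% of all) and 0 (0.518%), with 2 at an unadjusted p under 0.05 in limma (10.5% of all). In NaHS against PPG the counts were 0 (0.518% of all) and 0 (0%), with 3 at an unadjusted p under 0.05 in limma, namely Itga1, Itga3 and Itga5, all higher with NaHS, where 8.70% of all probes had such a p. The median difference of the 8 probes in that comparison was 0.30, against 0.01 over all probes, with 7 of 8 above 0. The 8 include 2 probes each of Itgb1 and Itga8. PPG replicate 3 was the lowest PPG sample for Itga1, Itga3 and Itga5. With 1 array left out, the differences of these genes fell to as low as 0.22, 0.46 and 0.36.

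In CS + LPS against control the median of the 8 probes was -0.10 (-0.04 over all probes), with 3 of 8 above 0. Of the 8, 3 had no overlap between groups, where 25.2% of all probes had none, and 1 had an unadjusted p under 0.05 in limma (25.2% of all). With PPG against control the median was -0.21 (-0.01 over all), with 2 of 8 above 0 and 1 at an unadjusted p under 0.05 in limma (29.3% of all). The methods' t-test at a fold of 2 called the same Itgb1 probe in CS + LPS against control, where it called 2.09% of all probes, and no member in the other 5 comparisons. After Benjamini-Hochberg adjustment that test left 0 members in any comparison, and 1 probe in all in CS + LPS against control.

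**Figure D4:**
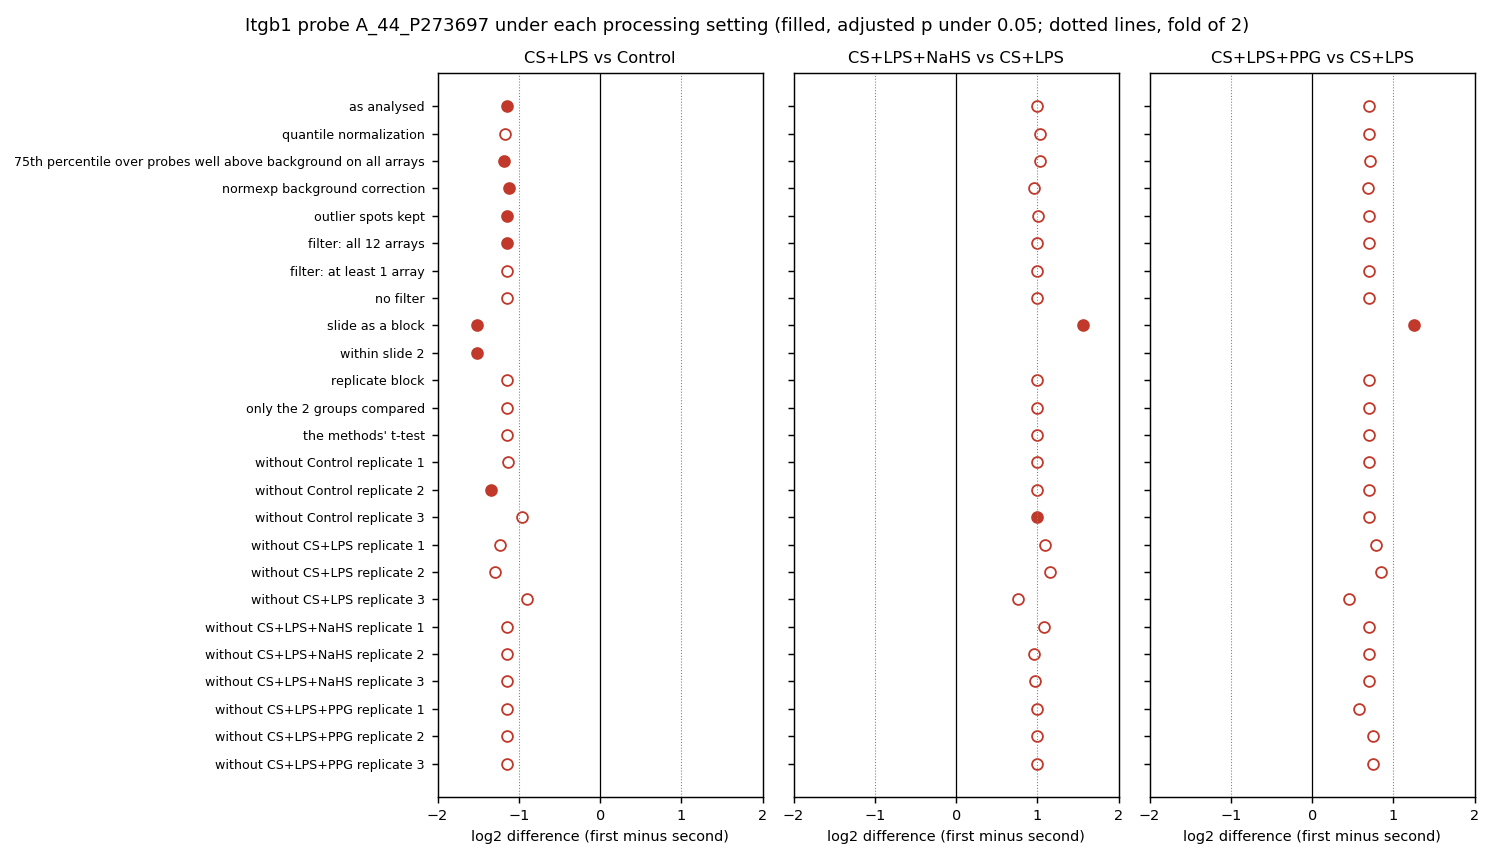
Difference of the Itgb1 probe A_44_P273697 on the log2 scale (x axis) in 3 comparisons under each processing setting (y axis). Filled points have an adjusted p under 0.05 and dotted lines mark a fold of 2. The value for CS + LPS minus control stayed between -1.51 and -0.90 in all settings, and the within-slide fit gives no value for the treated groups against CS + LPS.

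Partners and neighbours of these chains were read from lists of known genes, with 1 accession-named probe a gene. Of the other beta 1 partners 2 of 3 were detected and 0 were called in any comparison. Over the comparisons 0.518% to 4.59% of all probes were called by fold and p, and 0% to 4.61% by adjusted p. Itga7, the laminin-binding chain of muscle, differed by -0.83 between NaHS and control (SE 0.47, adjusted p = 0.375 in limma). Itga10, a collagen-binding chain of cartilage and fibroblasts, differed by 0.81 between NaHS and CS + LPS (SE 0.19, adjusted p = 0.11 in limma, unadjusted p = 0.00148). Of 6 other beta chains that pair with these alpha chains 5 were detected. In CS + LPS against control 1 of the 5 was called by fold and p, where 4.59% of all probes were. Itgb7, which pairs with Itga4 on lymphocytes, was higher by 1.08 in CS + LPS than in control (SE 0.30) and called by fold and p, with an adjusted p of 0.0817 in limma. It was not called without Control replicate 3 or without CS + LPS replicate 3, with differences of 0.77 and 0.81. Itgb3, which pairs with Itgav, was 0.51 lower in CS + LPS (adjusted p = 0.0865 in limma) and 0.55 higher with NaHS than in CS + LPS (adjusted p = 0.157 in limma), and was not called.

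Of 7 leukocyte and platelet integrins 4 were detected. In CS + LPS against control 1 of the 4 was called by fold and p, where 4.59% of all probes were. Itgb2, the beta chain of leukocytes, was 1.02 higher in CS + LPS than in control (SE 0.33) and called by fold and p (adjusted p = 0.109 in limma), though not without Control replicate 3 or without CS + LPS replicate 3, with differences of 0.61 and 0.96. The macrophage markers given above also did not overlap between these groups. The summed signal of 3 detected T and B cell markers did overlap, at 4372 to 6902 in CS + LPS and 2611 to 5070 in control. That of 3 detected neutrophil markers overlapped too, at 12150 to 26390 and 6744 to 17320. The median differences of these 2 lists were 0.79 and 0.83. The part of these cells in the Itgb2 and Itgb7 values was not tested.

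Of 26 ligands 18 were detected, and all calls were in PPG against control. By adjusted p 3 of 18 were lower and 0 higher, where 4.61% of all probes were called in either direction. Col4a1, a chain of basement membrane collagen and a ligand of Itga1, fell by 1.23 (SE 0.17, adjusted p = 0.0193 in limma). Its adjusted p was under 0.05 in 9 of the 12 fits that left out an array, and over it without each PPG sample, up to 0.0732. The laminin chain Lamb2 fell by 0.76 (SE 0.19, adjusted p = 0.0491 in limma), with an adjusted p under 0.05 in 1 of those 12 fits, the one without CS + LPS replicate 2. Spp1, osteopontin, was 3.14 higher (SE 1.04) and called by fold and p, with an adjusted p of 0.089 in limma and an SD of 2.40 among the PPG samples. Without PPG replicate 3 it was not called, and its difference was 2.18. The median of the 18 ligands was -0.33, against -0.01 over all probes.

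Of 26 cytoplasmic adhesion proteins 22 were detected. By adjusted p 1 of the 22 was called in PPG against control, where 4.61% of all probes were. The 1 called was Bcar1, a scaffold protein of focal adhesions, which fell by 0.79 with PPG against control (SE 0.14, adjusted p = 0.0219 in limma). Its adjusted p was over 0.05 without each PPG sample, up to 0.0813. In CS + LPS against control 0 of 18 ligands and 0 of 22 adhesion proteins were called by either rule, with medians of -0.06 and 0.07. Of all probes 4.59% were called there by fold and p and 2.04% by adjusted p. In PPG against control, Pecam1, an adhesion protein of endothelium, fell by 0.82 (adjusted p = 0.023 in limma). It was the 1 called of 4 detected endothelial markers, whose median was -0.22 and highest value 0.16, and the summed signal of the 4 ran from 75030 to 99640 against 96110 to 105900. The part of endothelium in the Itga1, Col4a1 and Lamb2 values was not tested.

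The genes whose pattern over the 12 arrays was nearest to that of a probe were found as the smallest root mean square difference of centred log2 values among 13354 named probes (13355 for Itga6). For the Itgb1 probe A_44_P273697, with a spread of its own of 0.508, they were Inhbb at 0.18, Cmas at 0.185 and Fmr1 at 0.194. For A_44_P507943, with a spread of 0.22, they were Ctbp1 at 0.0669, Ccm2 at 0.0681 and Ppp2cb at 0.073, none of them shared with the first probe. For Itga6, with a spread of 0.483, they were Fgd5 at 0.137, Nkiras1 at 0.148 and Zbtb10 at 0.169.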

How the data were processed

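The labels assign 3 lung RNA samples to each of 4 groups, hybridised to 12 single-colour Agilent arrays. The authors deposited the output of Feature Extraction 10.7.3.1 for each array, in which the processed signal is an intensity, linear and already background-subtracted. In addition there are 5 GeneSpring lists of DE probes, with deposited log2 signals of each sample, whose normalization is not given in the sources used here. Those lists also hold fold changes, p-values and directions, which were not used, nor were 60 flag columns. The signal was scaled as stated with the first values. Outlier spots were dropped before averaging the spots of each probe. Probes were kept where, in at least 1 group, at least 50% of the spots were well above background on all 3 arrays (21239 of 30367). Symbols came from RefSeq accessions (17514 probes) or otherwise from the lists (194), and 12659 probes had none. limma 3.58.1 in R 4.3.3, with the data.table package (1.17.8), fitted all 12 arrays and gave 6 comparisons. The fit was tested on simulated data. Precision is limited by the number of arrays. Alternatives were another normalization, background correction, filter, slide and replicate block, test, and each array left out. All member genes are named. Of each other list, up to 3 called genes a direction could be named. The values of 1 called ligand are not reported here. For the Itgb1 probes and Itga6 the 3 nearest patterns are given. Members and lists were chosen with earlier results of these data known.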

Additional observations from a re-analysis of the deposited data

How the results depend on the processing

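Of 284 counts of called integrin probes under other settings, 231 equalled those reported. In CS + LPS against control, the count by fold and p was 2 in place of 1 with the slide as a block and within slide 2 (22.7% of all probes), where Itga8 A_44_P498905 joined Itgb1 A_44_P273697, and 0 to 1 with an array left out. By adjusted p it was 0 in place of 1 under quantile normalization, with the filter at 1 array or no filter, in the replicate block, with the arrays of the 2 groups alone and by the methods' t-test, 4 with the slide as a block and within slide 2 (41.5% of all probes), where both Itgb1 and both Itga8 probes were called, and 0 to 1 with an array left out. In PPG against control, the count by adjusted p was 0 in place of 1 with the filter at 1 array or no filter, with the slide as a block, within slide 1, in the replicate block, with the arrays of the 2 groups alone and by the methods' t-test, and 0 with any array left out. In NaHS against CS + LPS, the count by fold and p was 1 in place of 0 under quantile normalization, under the 75th percentile of the probes well above background on all arrays and with outlier spots kept, each time Itgb1 A_44_P273697. It was 2 with the slide as a block (19.9% of all probes), and 0 to 1 with an array left out. By adjusted p it was 4 with the slide as a block (23.0%) and 0 to 1 with an array left out. In PPG against CS + LPS both counts were 4 in place of 0 with the slide as a block (19.4% and 22.5% of all probes). The cause of these changes was not tested, except that the slide-blocked and within-slide 2 fits contrast CS + LPS with Control replicate 3 alone, a single array assumed to vary like the other groups. Within slides no fit of NaHS or PPG against CS + LPS was possible, since no slide holds both.

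Of the single values, Itga8 A_42_P506198 in NaHS against CS + LPS reversed with the slide as a block, from 0.05 to -0.98 (adjusted p = 0.022 in limma). Over all probes, calls by fold and p in CS + LPS against control numbered 974, of which 351 were higher, against 567 of 924 after quantile normalization and 133 of 448 after normexp, which moved the median of all probes from -0.04 to -0.14. Calls by adjusted p numbered 433 there, against 79 in the replicate block and 8815 with the slide as a block. The replicate numbers did not pair the samples: same-numbered arrays correlated at r of -0.308 to 0.139 after group means were removed, 2 of 18 pairs over 0.1, and 1 of 12 arrays correlated best with its own number. The normexp correction used the median signal of each spot.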
